A study of Mus musculus with 2 samples.

Results

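Ccnb1ip1 and Osbp are 2 of the 32285 genes counted in single-cell libraries of mouse hippocampus. They were picked from these same data because Ccnb1ip1 was lower and Osbp higher in most cell classes of the library from Crlf3-mutant mice. The contrast between the libraries therefore chose both genes, and their values in it are given as a description, with no test. Each genotype has 1 library, so the spread between animals of a genotype was not measured. Intervals are 95% intervals of counting error alone, exact Poisson for levels, Clopper-Pearson for shares and exact conditional binomial for ratios.

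The wild-type library came from the pooled hippocampi of 2 mice (4 hippocampi), and the Crlf3-mutant library from 4 hippocampi of 2 mice that carry the Crlf3L389P allele. All animals were 4 weeks old and untreated. Crlf3 encodes cytokine receptor-like factor 3. The zygosity of the mutant and the sex of the mice are not given in the sources used here. The tissue was dissociated, cleared of debris and myelin and sorted for live cells, and the classes below were read from the data. No cluster was named as mature neurons, and the neuron values come from dividing progenitors and young neuroblasts.

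Ccnb1ip1, also called HEI10, encodes a RING-finger E3 ligase that binds B-type cyclins. It is best known in germ cells, where it works with RNF212 at the sites that become meiotic crossovers. Osbp encodes oxysterol-binding protein, which sits at contacts between the endoplasmic reticulum and the Golgi. There it is anchored by the VAP proteins, carries cholesterol to the Golgi and returns phosphatidylinositol 4-phosphate (PI4P), the lipid made by the PI4 kinases and consumed by the phosphatase SAC1. Neither gene is a marker of a brain cell type.

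Ccnb1ip1 (ENSMUSG00000071470) lies on the minus strand of GRCm38 at chr14:50789248-50807732, with 2 annotated transcripts of 4 and 3 exons. The first starts at 50795728 and the second at 50807732. The first exon of the second transcript lies within Rpph1, the RNA of ribonuclease P (chr14:50807449-50807767, same strand), which is not among the counted genes. Reads from Rpph1 in that stretch and reads from this transcript of Ccnb1ip1 cannot be told apart here, and this limit holds for every Ccnb1ip1 value below. Osbp (ENSMUSG00000024687) lies on the plus strand at chr19:11965941-11994112, with 1 annotated transcript of 14 exons.

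The 250 bases upstream of each gene's RefSeq start (GRCm38.p6) are shown because the difference of each gene kept 1 direction over the classes compared, and they let the sequences before both starts be set side by side. Capitals mark the CCAAT box (CCAAT) and the GC box (GGGCGG) on either strand. The Ccnb1ip1 window is chr14:50795729-50795978, and the Osbp window is chr19:11965594-11965843.

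Ccnb1ip1: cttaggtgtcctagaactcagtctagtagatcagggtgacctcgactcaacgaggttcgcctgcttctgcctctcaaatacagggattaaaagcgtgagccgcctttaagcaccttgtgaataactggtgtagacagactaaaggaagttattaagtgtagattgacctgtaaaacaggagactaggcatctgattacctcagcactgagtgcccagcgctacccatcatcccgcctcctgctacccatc

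Osbp: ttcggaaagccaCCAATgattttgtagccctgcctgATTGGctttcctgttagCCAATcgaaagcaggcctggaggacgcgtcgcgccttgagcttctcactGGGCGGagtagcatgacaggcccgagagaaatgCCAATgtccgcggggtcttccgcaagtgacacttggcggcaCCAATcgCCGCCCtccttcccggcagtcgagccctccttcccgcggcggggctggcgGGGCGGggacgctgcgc

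The Osbp window held 5 CCAAT boxes and 3 GC boxes, of which 1 CCAAT box and 1 GC box read on the opposite strand. The Ccnb1ip1 window held neither. Of 32851 mouse windows of this length, 33.8% held a CCAAT box and 32.7% a GC box. G and C made up 64% of the Osbp window and 48.8% of the Ccnb1ip1 window, against a median of 52.4%, and the windows held 23 and 7 CG dinucleotides against a median of 6. Neither held a TATA box (TATAAA), an E-box (CACGTG) or the NRF1 motif, which stand in 12.4%, 6.02% and 0.782% of windows. The window for the second Ccnb1ip1 start was not used here.

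The wild-type library kept 7098 cells with a median of 6193 unique molecular identifiers (UMIs, 1 per captured RNA molecule), and the mutant library 5276 cells with a median of 7385. Ccnb1ip1 gave 1938 UMIs in wild-type cells and 874 in mutant cells, and Osbp gave 1632 and 1890. The libraries shared 54 cell barcodes among those kept. Cells were clustered without either gene and classes were named "like" a cell type from markers. The classes compared, each with at least 100 cells in both libraries, were microglia-like, astrocyte-like, endothelial-like, mural-like and choroid plexus-like cells and the neuron lineage. The neuron lineage joins neural progenitor-like and neuroblast-like cells. All markers of these classes were at least 2-fold above the level in the other cells, and the classes are named below without "-like". Levels are UMIs of the gene per 1000000 UMIs of the class (CPM). A gene counted as measured in a class where the higher library reached 20 CPM and 20 UMIs.

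Over all cells, Ccnb1ip1 stood at 39.6 CPM (37.8 to 41.4) in wild-type cells and 20.9 CPM (19.6 to 22.4) in mutant cells. The level was 1.89-fold lower in the mutant library (1.74 to 2.05), a log2 ratio of -0.92. Of 7318 genes measured over all cells, 1.04% were at least 1.5-fold lower in the mutant library and 0.779% at least 1.5-fold higher. Osbp stood at 33.3 CPM (31.7 to 35.0) in wild-type cells and 45.3 CPM (43.3 to 47.4) in mutant cells, 1.36-fold higher (1.27 to 1.45), a log2 ratio of 0.44. The level intervals of the libraries did not overlap for either gene. The median measured gene had a log2 ratio of 0.05 over all cells.

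In the wild-type library Ccnb1ip1 was highest in the neuron lineage, at 88.1 CPM (75.5 to 102), followed by astrocytes at 53.7 CPM (47.4 to 60.5) and microglia at 44.1 CPM (41.6 to 46.7). The counting intervals of these 3 levels did not overlap, but the order rests on few cells. In the neuron lineage 8 of 206 wild-type cells held 115 of the 175 UMIs. Without cells holding 5 or more of its UMIs, the wild-type levels were 31.5 CPM (24.03 to 40.5) in the neuron lineage, 33.9 CPM (28.9 to 39.4) in astrocytes and 30.8 CPM (28.7 to 33.01) in microglia, and these intervals overlapped. Mural cells stood at 34.2 CPM (19.9 to 54.8) and endothelial cells at 24.3 CPM (19.8 to 29.6), and mural cells could not be separated from microglia or endothelial cells. The choroid plexus, the secretory epithelium that makes cerebrospinal fluid, stood below all of them at 2.28 CPM (1.22 to 3.90), although its cells had a median of 10194 UMIs. In the mutant library the order was microglia at 24.4 CPM (22.5 to 26.5), astrocytes at 21.6 CPM (17.2 to 26.8), the neuron lineage at 16.1 CPM (11.96 to 21.1), endothelial cells at 16.0 CPM (12.5 to 20.1), mural cells at 5.52 CPM (1.505 to 14.1) and the choroid plexus at 0.811 CPM (0.0982 to 2.93). No 2 neighbours in that order were apart by their intervals.

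**Figure D1:**
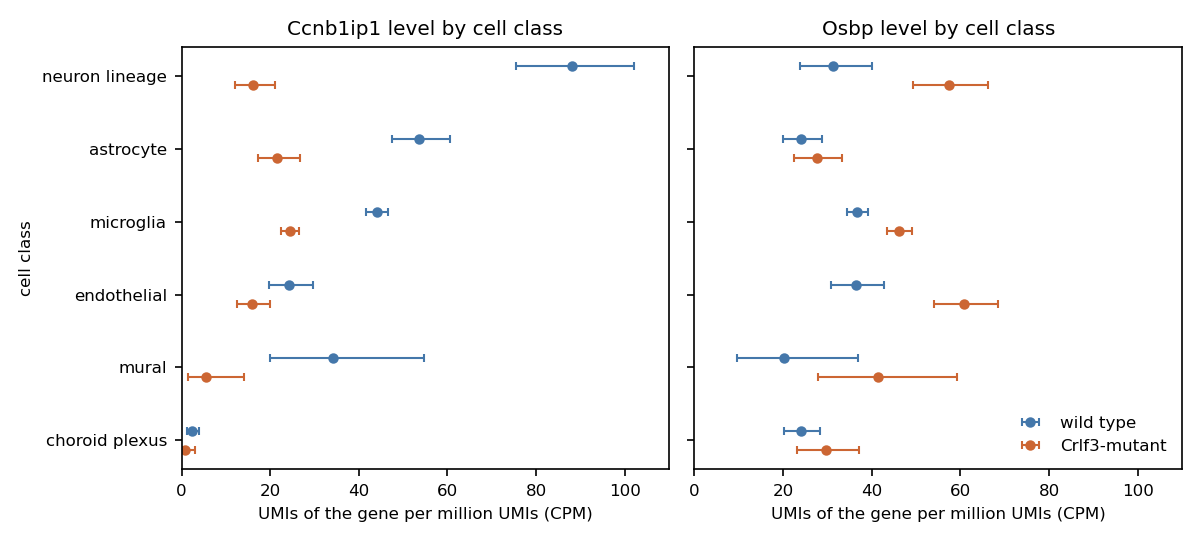
Level of each gene in the 6 cell classes, in UMIs of the gene per 1000000 UMIs (CPM), with 1 point per library and bars for the exact 95% Poisson interval. The Ccnb1ip1 points of the wild-type library lie to the right of those of the mutant library in each class, from 88.1 against 16.1 CPM in the neuron lineage to 2.28 against 0.811 CPM in the choroid plexus, and the Osbp points lie the other way round.

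The Ccnb1ip1 level was lower in the mutant library in 6 of the 6 classes, and 4 of the 6 passed the filter on low values. The interval lay below 0 in 5 of the 6. In the neuron lineage its log2 ratio was -2.45 (-2.93 to -1.997), from 175 UMIs in 206 wild-type cells and 51 UMIs in 261 mutant cells, and 1.64% of 8292 measured genes were at least 1.5-fold lower. In astrocytes it was -1.31 (-1.69 to -0.95), from 268 and 83 UMIs, where 0.716% of 7265 genes were at least 1.5-fold lower. In microglia it was -0.85 (-0.998 to -0.71), from 1179 and 565 UMIs, where 0.0964% of 6224 genes were at least 1.5-fold lower. In endothelial cells it was -0.61 (-1.06 to -0.16), from 101 and 74 UMIs, where 0.862% of 6615 genes were at least 1.5-fold lower. Among measured genes Ccnb1ip1 ranked 2nd from the lowest ratio in the neuron lineage, 3rd in astrocytes, 3rd in microglia and 55th in endothelial cells.

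The other 2 classes held too few Ccnb1ip1 UMIs to pass the filter. Mural cells wrap small vessels as pericytes or smooth muscle. They held 17 UMIs of Ccnb1ip1 in 132 wild-type cells and 4 in 170 mutant cells, a log2 ratio of -2.63 (-4.66 to -1.01). In mural cells 4.87% of 5631 measured genes were at least 1.5-fold lower. The choroid plexus held 13 and 2 UMIs, and its log2 ratio of -1.49 had an interval that includes 0 (-4.68 to 0.65). In the choroid plexus 0.867% of 5307 genes were at least 1.5-fold lower. No gene among the 3130 measured in all 6 classes was at least 1.5-fold lower in all 6, a share of 0%, and 2.52% had a log2 ratio below 0 in all 6. Ccnb1ip1 is not among these 3130 genes, because it did not pass the filter in these 2 classes. The shares are thus of genes that passed it in each class, and are not a like comparison for Ccnb1ip1.

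Within the neuron lineage, both stages had ratios below 0, which rested in part on few wild-type cells. Neuroblasts, marked by Dcx and Sox11, stood at 91.0 CPM (74.2 to 110) in wild-type cells and 16.7 CPM (11.3 to 23.9) in mutant cells, a log2 ratio of -2.44 (-3.08 to -1.84). Most of their UMIs, 102 and 28, lay in the cluster led by Neurod1, where the log2 ratio was -2.46. The neuroblast cluster led by Dlx6os1 held 1 and 2 UMIs, a log2 ratio of -0.15 (-4.42 to 5.73). Of 8104 genes measured in neuroblasts, 3.02% were at least 1.5-fold lower and 3.49% at least 1.5-fold higher. Dividing progenitors, marked by Mki67 and Top2a, stood at 84.3 CPM (65.9 to 106) and 15.2 CPM (9.41 to 23.2), a log2 ratio of -2.47 (-3.25 to -1.75). Of the 72 UMIs in 67 wild-type progenitors, 49 lay in 2 cells and 43 of those in 1. Without cells of 5 or more UMIs the log2 ratio was -0.86 in progenitors and -1.30 in neuroblasts. At 2000 UMIs per cell, 5.97% (1.65 to 14.6) of wild-type and 4.71% (1.297 to 11.6) of mutant progenitors held a UMI, and those intervals overlapped.

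Osbp levels lay closer together between classes. In the wild-type library microglia stood at 36.7 CPM (34.4 to 39.1), endothelial cells at 36.4 CPM (30.8 to 42.7), the neuron lineage at 31.2 CPM (23.9 to 40.0), the choroid plexus at 24.1 CPM (20.2 to 28.4), astrocytes at 24.0 CPM (19.9 to 28.7) and mural cells at 20.1 CPM (9.65 to 37.0). No 2 neighbours in that order were apart by their intervals, though microglia and endothelial cells were both above astrocytes and the choroid plexus. In the mutant library endothelial cells stood at 60.9 CPM (54.0 to 68.4), the neuron lineage at 57.3 CPM (49.3 to 66.3), microglia at 46.2 CPM (43.5 to 49.1), mural cells at 41.4 CPM (27.9 to 59.1), the choroid plexus at 29.6 CPM (23.2 to 37.2) and astrocytes at 27.6 CPM (22.6 to 33.3). In the mutant library endothelial cells and the neuron lineage lay above microglia, and microglia lay above the choroid plexus and astrocytes.

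The Osbp level was higher in the mutant library in 6 of the 6 classes, and all 6 passed the filter. The interval lay above 0 in 3 of them. The log2 ratio was 0.88 (0.45 to 1.32) in the neuron lineage, from 62 and 182 UMIs, where 1.56% of genes were at least 1.5-fold higher. It was 0.74 (0.45 to 1.04) in endothelial cells, from 151 and 282 UMIs, where 0.333% of genes were at least 1.5-fold higher, and Osbp ranked 6th from the highest of 6615 genes there. It was 0.33 (0.21 to 0.46) in microglia, from 982 and 1069 UMIs. This is below 1.5-fold, a size that 0.0482% of genes reached upward in microglia. The 5th to 95th percentile of all genes in microglia ran from -0.13 to 0.17.

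In the other classes the Osbp interval included 0. The log2 ratio was 1.04 (-0.03 to 2.24) in mural cells, from 10 and 30 UMIs, where 8.83% of genes were at least 1.5-fold higher. It was 0.30 (-0.13 to 0.72) in the choroid plexus, from 137 and 73 UMIs, where 1.94% of genes were at least 1.5-fold higher. It was 0.20 (-0.19 to 0.59) in astrocytes, from 120 and 106 UMIs, where 0.44% of genes were at least 1.5-fold higher. Osbp was thus at least 1.5-fold higher in 3 of the 6 classes, the neuron lineage, endothelial cells and mural cells. Of the 3130 genes measured in all 6, 1 (0.0319%), Osbp itself, reached that size in 3 or more. Osbp was picked for being higher in most classes, so this share is no support for it. In mural cells it passed the filter only through the mutant library, with 30 UMIs against 10. The number of classes past 1.5-fold depends on how cells are taken. In mural cells the ratio was 0.32 at Leiden resolution 0.5, from 26 and 37 UMIs, and in endothelial cells it was 0.45 at 2000 UMIs per cell and 0.45 in cells with Xist, all below 1.5-fold. Astrocytes had the smallest ratio. Of the 3130 genes measured in all 6 classes, 3.93% had a log2 ratio above 0 in all 6.

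**Figure D2:**
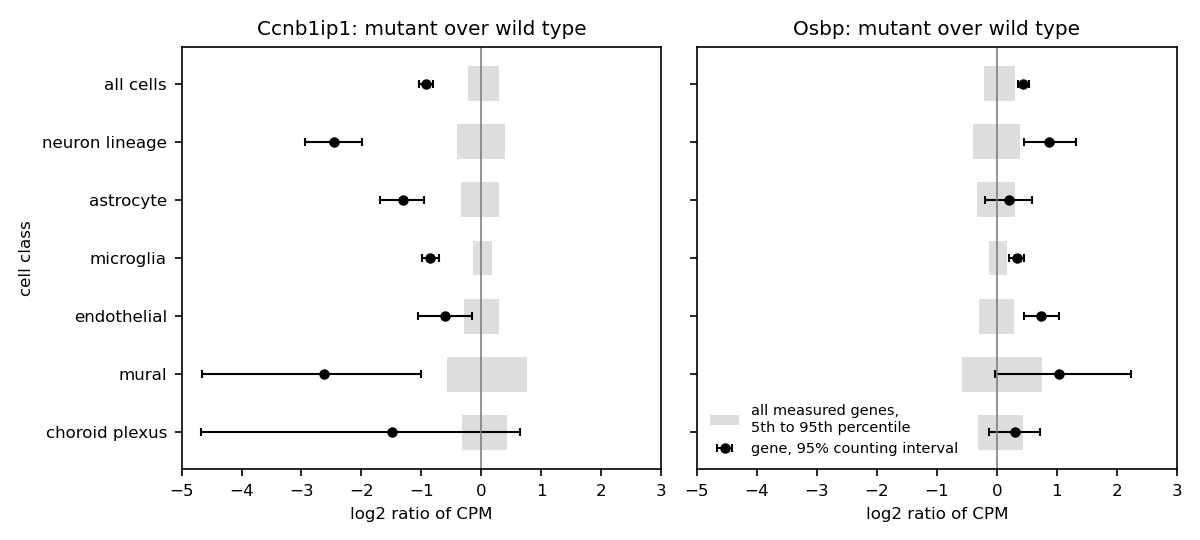
Log2 ratio of CPM, Crlf3-mutant over wild type, over all cells and in each class, with the exact 95% counting interval as bars and the 5th to 95th percentile of all genes measured in the class as a grey band. The Ccnb1ip1 point lies left of the band in each class, from -0.61 in endothelial cells to -2.63 in mural cells. In mural cells and the choroid plexus Ccnb1ip1 did not pass the filter that the genes of the band passed, so the band is not a like comparison there. The Osbp point lies right of the band except in astrocytes (0.20) and the choroid plexus (0.30).

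Within the neuron lineage, the Osbp ratio was larger in neuroblasts than in dividing progenitors. Neuroblasts stood at 23.8 CPM (15.7 to 34.7) in wild-type cells and 59.1 CPM (48.4 to 71.5) in mutant cells, a log2 ratio of 1.31 (0.69 to 1.98). Dividing progenitors stood at 41.0 CPM (28.5 to 57.0) and 55.0 CPM (43.4 to 68.9), a log2 ratio of 0.43 with an interval that includes 0 (-0.17 to 1.05). The intervals of the 2 stage ratios overlapped, and the difference between them was not tested.

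Classes with fewer than 100 cells in a library gave wide intervals. Border macrophages (83 and 27 cells) held 11 and 1 UMIs of Ccnb1ip1, or 20.3 and 5.51 CPM. Of Osbp they held 11 and 8 UMIs, or 20.3 and 44.0 CPM. Ependymal cells, the ciliated lining of the ventricles, went the other way for Ccnb1ip1, with 16.8 CPM (9.21 to 28.3) in 82 wild-type cells and 58.0 CPM (33.2 to 94.2) in 26 mutant cells. The 16 mutant UMIs lay in 4 cells, 2 of which held 7 each. Without cells of 5 or more Ccnb1ip1 UMIs, 14 wild-type and 2 mutant UMIs were left in ependymal cells. The wild-type level stayed at 16.8 CPM and the mutant level fell to 7.88 CPM (0.954 to 28.4), so the direction turned and the intervals overlapped. The share of ependymal cells with a Ccnb1ip1 UMI was 17.1% (9.66 to 27.0) for wild type and 15.4% (4.36 to 34.9) for the mutant. Osbp was lower in the mutant library in ependymal cells, at 27.7 and 21.8 CPM from 23 and 6 UMIs. It was also lower in fibroblasts, at 32.9 and 12.3 CPM from 3 and 1 UMIs. In the cluster led by S100a9 and S100a8 Osbp was higher, at 36.1 and 42.8 CPM from 10 and 13 UMIs. The Osbp ratio interval included 0 in each of these small classes. In cells left unnamed, most of them in a cluster led by Nrgn, Ccnb1ip1 stood at 46.0 and 23.6 CPM and Osbp at 39.0 and 41.0 CPM.

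The UMIs of Ccnb1ip1 were spread unevenly over cells. In the wild-type library 67 of 7098 cells (0.944%) held 5 or more Ccnb1ip1 UMIs, and those cells held 33.1% of all its UMIs. In the mutant library 27 of 5276 cells (0.512%) did, with 24.9% of its UMIs. The highest wild-type cell held 43 UMIs and the highest mutant cell 33. For Osbp the highest cell held 5 UMIs in either library, and cells with 5 held 0.306% and 1.32% of its UMIs. Exact Poisson and binomial intervals take UMIs as independent, so for Ccnb1ip1 the intervals above are too narrow.

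The Fano factor, the variance of the count per cell divided by its mean, is near 1 for independent counts in cells of equal depth, and unequal depth raises it. In microglia it was 4.19 for Ccnb1ip1 in the wild-type library, and 8 of 3922 genes with a total from 0.5 to 2 times its own had a higher one. They include the chemokine genes Cxcl10 and Cxcl2, the interferon-response gene Isg15 and the antigen-presentation gene Cd74. In the mutant library it was 4.91, and only Cxcl2 of 4111 such genes was higher. That value leans on 1 cell with 33 UMIs, without which it was 3.19 and 6 genes were higher. Without the highest wild-type cell it was 3.90 and 8 genes were higher. At 2000 UMIs per cell the Ccnb1ip1 value in microglia was 2.01 for wild type and 1.66 for the mutant. Osbp had a Fano factor of 1.08 in wild-type cells and 1.14 in mutant cells, beside medians of 1.08 and 1.11 for genes of like total.

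**Figure D3:**
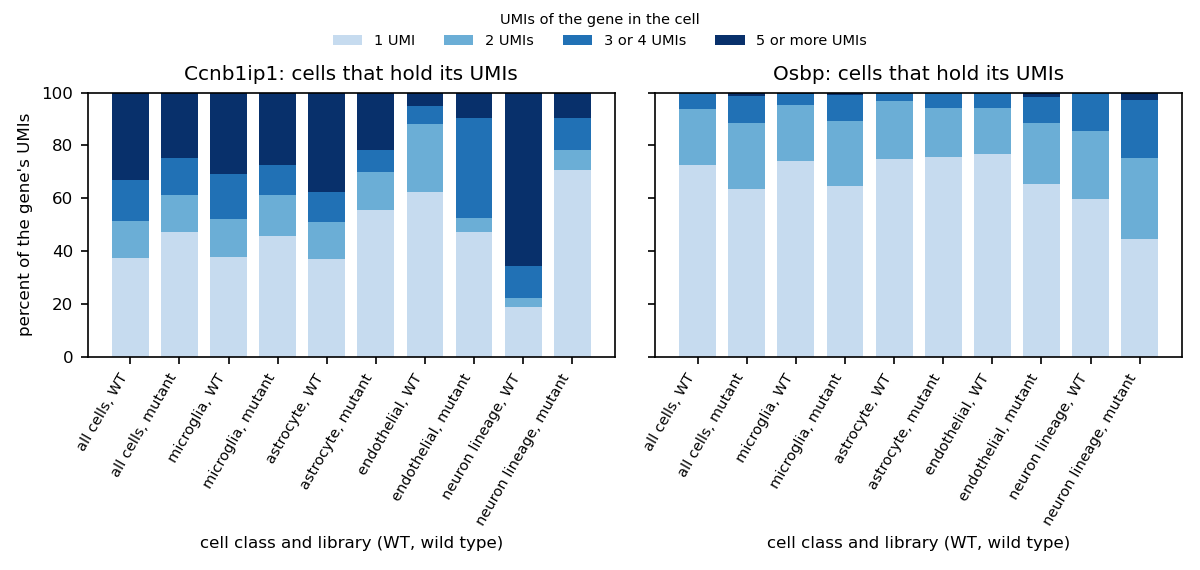
Percent of each gene's UMIs that lay in cells holding 1, 2, 3 or 4, and 5 or more of its UMIs, for all cells and 4 classes in each library. Cells with 5 or more held 65.7% of the Ccnb1ip1 UMIs of the wild-type neuron lineage and 9.80% in the mutant one, and at most 2.75% of the Osbp UMIs in any bar.

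Cells rich in Ccnb1ip1 were found in several classes. In the wild-type library 42 microglia, 10 astrocytes, 8 cells of the neuron lineage and 1 endothelial cell held 5 or more UMIs, and in the mutant library 17, 3, 1 and 1 did. The 8 neuron-lineage cells held 115 of the 175 wild-type UMIs of that class, and 1 of them, a progenitor, held 43. The 67 wild-type cells had a median of 8182 UMIs against 6180 in the other cells, and a median mitochondrial share of 1.97% against 1.80%. Of these 67 cells, 27 had Xist and no Y-linked transcript and 24 had Y-linked transcripts and no Xist.

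The size of the Ccnb1ip1 ratio in the neuron lineage rested in part on these cells. Without cells holding at least 5 of its UMIs, the log2 ratio was -1.11 there, -0.99 in astrocytes, -0.79 in microglia and -0.68 in endothelial cells. With at most 1 UMI counted per cell, it was -0.96 in the neuron lineage, -0.90 in astrocytes, -0.69 in microglia and -0.91 in endothelial cells. On that count these 4 classes lay between -0.96 and -0.69. Both ways of counting were chosen after the data were seen. For Osbp, counting at most 1 UMI per cell gave 0.67 in the neuron lineage, 0.62 in endothelial cells and 0.23 in microglia.

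The share of cells with a Ccnb1ip1 UMI was 24.3% (18.6 to 30.7) in the wild-type neuron lineage and 15.7% (11.5 to 20.7) in the mutant one, at median depths of 9189 and 11609 UMIs. In astrocytes it was 17.2% (14.7 to 20.03) and 11.4% (8.75 to 14.5), in microglia 15.5% (14.4 to 16.6) and 11.5% (10.3 to 12.7), and in endothelial cells 9.59% (7.66 to 11.8) and 5.81% (4.30 to 7.65). The choroid plexus, with the lowest level, had shares of 2.66% (1.38 to 4.60) and 1.25% (0.152 to 4.44), which are the nearest measure of background from free RNA here. Mutant cells were deeper in each of these classes, and a deeper cell is more likely to show a UMI of any gene.

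After each cell was thinned to 2000 UMIs, which left out 162 wild-type and 120 mutant cells, the shares with a Ccnb1ip1 UMI were 9.76% (6.06 to 14.7) and 3.91% (1.89 to 7.07) in the neuron lineage. They were 6.66% (4.997 to 8.66) and 4.59% (2.90 to 6.87) in astrocytes, 6.55% (5.80 to 7.35) and 4.22% (3.52 to 5.02) in microglia, and 4.88% (3.49 to 6.61) and 2.92% (1.86 to 4.34) in endothelial cells. The intervals of the libraries were apart in microglia and overlapped in the other 3 classes.

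The share of cells with an Osbp UMI was 23.3% (17.7 to 29.7) in the wild-type neuron lineage and 46.7% (40.6 to 53.0) in the mutant one. It was 16.0% (13.6 to 18.7) and 27.9% (24.9 to 31.2) in endothelial cells, 20.7% (19.5 to 22.0) and 29.0% (27.4 to 30.7) in microglia, and 12.98% (10.7 to 15.5) and 18.4% (15.1 to 22.1) in astrocytes. At 2000 UMIs per cell the shares were 4.88% (2.36 to 8.79) and 8.59% (5.46 to 12.7) in the neuron lineage, 7.88% (6.11 to 9.98) and 11.2% (9.04 to 13.6) in endothelial cells, 7.14% (6.37 to 7.98) and 9.09% (8.07 to 10.2) in microglia, and 3.92% (2.66 to 5.54) and 5.22% (3.41 to 7.61) in astrocytes. The intervals were apart in microglia and overlapped in the other 3 classes. In the choroid plexus the shares were 23.7% (19.9 to 27.9) and 35.6% (28.2 to 43.6) as counted, at median depths of 10194 and 12358 UMIs, and 4.27% (2.59 to 6.59) and 4.46% (1.81 to 8.97) at 2000 UMIs per cell, where its log2 ratio was 0.06 in place of 0.30. No class with cells that should lack Osbp was at hand for a background share.

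Microglia gave most of the cells, and their 6 clusters of at least 100 cells in each library could be read one by one. The Ccnb1ip1 log2 ratio ran from -1.03 to -0.38 over them and was below 0 in 6 of 6, with an interval clear of 0 in 5. The lowest was in a cluster led by Rgs1, Hspa1b and Tmem119, from 52.0 to 25.5 CPM. The cluster led by Gpr84, Il1a and Tnf went from 41.7 to 21.7 CPM, and the cluster led by Cxcl10 and Il1b from 39.8 to 22.8 CPM. The Osbp log2 ratio ran from 0.17 to 0.52 and was above 0 in 6 of 6, with an interval clear of 0 in 3. Its level ran from 32.5 to 43.9 CPM over the wild-type clusters and from 42.5 to 49.3 CPM over the mutant ones.

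Depth per cell differed between the libraries, and microglia were therefore also split into 4 groups by depth, with equal numbers of cells over both libraries. The Ccnb1ip1 log2 ratio was -0.45, -0.80, -0.70 and -0.96 from the shallowest to the deepest group, and the Osbp log2 ratio was 0.22, 0.75, 0.24 and 0.32. The Ccnb1ip1 interval was clear of 0 in each group, and the Osbp interval in the second and the deepest.

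Each library held cells that had Xist but no Y-linked transcript (2870 and 2109) and cells with Y-linked transcripts and no Xist (2086 and 1760), so each holds cells of both sexes. In the Xist cells Ccnb1ip1 stood at 42.4 CPM (39.5 to 45.4) for wild type and 22.0 CPM (19.8 to 24.3) for the mutant. In the Y cells it stood at 34.8 CPM (32.0 to 37.7) and 21.2 CPM (19.0 to 23.6). The choroid plexus, low in Ccnb1ip1, gave 216 of the 2086 wild-type Y cells and 5 of the 2870 wild-type Xist cells. The subsets thus differ in cell make-up, and their levels over all cells cannot be read as a difference between sexes. Osbp stood at 35.4 CPM (32.8 to 38.2) and 44.5 CPM (41.3 to 47.8) in the Xist cells, and at 31.8 CPM (29.1 to 34.6) and 45.4 CPM (42.1 to 48.8) in the Y cells. The wild-type and mutant intervals were apart in both subsets for both genes. These subsets are not labelled animals, and their values say nothing of how animals of one sex and genotype vary.

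In the 4 classes plotted, both subsets had Ccnb1ip1 ratios below 0 and Osbp ratios above 0, with wider intervals. In the neuron lineage Ccnb1ip1 stood at 67.4 and 15.6 CPM in Xist cells, a log2 ratio of -2.11 (-2.96 to -1.33), and at 57.8 and 16.2 CPM in Y cells, a log2 ratio of -1.84 (-2.57 to -1.13). In astrocytes the log2 ratio was -0.76 (-1.25 to -0.28) in Xist cells and -1.37 (-2.09 to -0.70) in Y cells. Osbp in endothelial cells had a log2 ratio of 0.45 (-0.03 to 0.93) in Xist cells and 0.89 (0.31 to 1.496) in Y cells. Osbp in the neuron lineage had a log2 ratio of 0.59 (-0.02 to 1.22) in Xist cells and 1.21 (0.49 to 2.01) in Y cells. The differences between the subsets were not tested.

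**Figure D4:**
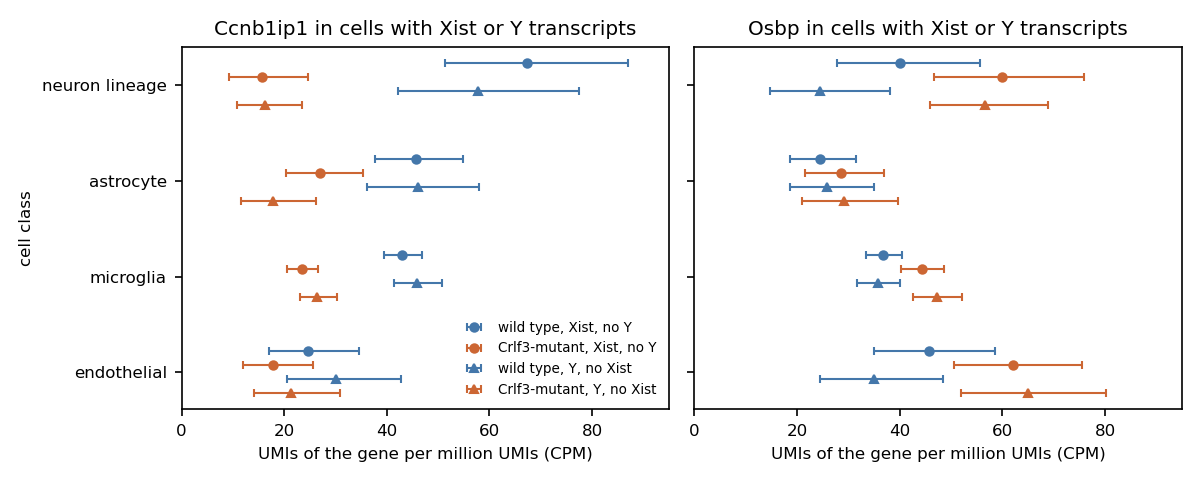
Level of each gene, in UMIs per 1000000 UMIs (CPM), for Xist cells without Y-linked transcripts (circles) and Y cells without Xist (triangles), by class and library, with exact 95% Poisson intervals. In microglia Ccnb1ip1 lies at 43.0 and 45.9 CPM in the 2 wild-type subsets and at 23.4 and 26.4 CPM in the 2 mutant subsets, and Osbp at 36.8 and 35.8 CPM against 44.4 and 47.2 CPM.

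Microglia were the largest class, and their markers were also counted in the other classes. The summed level of the 8 microglia markers was 1384 CPM in the wild-type neuron lineage and 1451 CPM in the mutant one, 976 and 741 CPM in astrocytes, 653 and 343 CPM in endothelial cells, and 22373 and 22662 CPM in microglia. Each of the 8 markers had UMIs in each class and library. Without cells outside microglia that held at least 50 UMIs of these markers, the Ccnb1ip1 log2 ratio was -2.58 in the neuron lineage, -1.25 in astrocytes and -0.66 in endothelial cells, and the Osbp log2 ratio was 0.81, 0.22 and 0.68.

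None of the measured neighbours was 1.5-fold apart over all cells. Parp2, which encodes a DNA repair enzyme and lies 109 bases from Ccnb1ip1, stood at 35.2 and 37.2 CPM, a log2 ratio of 0.08 (-0.02 to 0.18). Ttc5 had a log2 ratio of 0.10 (0.00 to 0.19) and Tep1 of 0.02 (-0.09 to 0.13). Next to Osbp only Patl1, a factor of mRNA decay, was measured, with a log2 ratio of 0.04 (-0.10 to 0.17). Gm26782 and Klhl33 near Ccnb1ip1 did not pass the filter, and the other near genes were olfactory receptor genes with at most 4 UMIs in both libraries together.

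Most partners of Ccnb1ip1 in meiosis were below the filter. Of 18 genes in the list of meiotic crossover and RING partners, only Rpa1, a single-strand DNA binding protein, was measured over all cells, with a log2 ratio of -0.08, where the median of all genes was 0.05. Rnf212 and Sycp1 had 0 UMIs in both libraries, which does not show that they are absent. Also below the filter, the level of Mlh3 was 11.2 and 12.4 CPM. Tex11 stood at 1.04 and 0.144 CPM, from 51 and 6 UMIs, a log2 ratio of -2.86. Sycp3 stood at 1.31 and 2.42 CPM, from 64 and 101 UMIs, a log2 ratio of 0.89. In the neuron lineage Rpa1 had a log2 ratio of -0.26 and Exo1 of -0.15.

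Of the list of cyclin B, its kinase and merlin, 7 of 8 genes were measured in the neuron lineage, where 6 were above 0 and the median was 0.51, against 0.00 for all genes. Cdk1, the kinase that drives mitosis, stood at 87.1 and 137 CPM, a log2 ratio of 0.65, and its partner Ccnb1 at 66.4 and 103 CPM, a log2 ratio of 0.63. These 2 were at least 1.5-fold higher and none was 1.5-fold lower, beside 1.56% and 1.64% of all genes there. The 1 gene below 0 was Cdk2 at -0.16. The progenitor share of the neuron lineage was 67 of 206 wild-type cells and 88 of 261 mutant cells, and its part in these values was not tested. Over all cells only Nf2, which encodes merlin, was measured, with a log2 ratio of 0.13. Of the 14 ubiquitin and SUMO conjugating enzymes, all were measured over all cells, none was 1.5-fold apart, and the largest differences were in Pias2 (0.29) and Sae1 (0.24).

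Among the relatives of Osbp no measured gene was 1.5-fold apart over all cells. Of 11 other OSBP-related genes, 5 were measured, with a range of log2 ratios from -0.12 to 0.15. The farthest were Osbpl8 at 0.15 and Osbpl9 at 0.13. Of 11 genes of the VAP receptors and the PI4P cycle, 10 were measured over all cells and 10 lay above 0, from 0.01 to 0.24. Their median was 0.08 against 0.05 for all genes, so most measured genes lay above 0 too. Pi4kb, a Golgi PI4 kinase, had 0.24 and Sacm1l, which encodes SAC1, had 0.22, while the receptors Vapa and Vapb had 0.05 and 0.02. Within classes the list was split in some, with 4 of 8 measured genes above 0 in microglia and 4 of 9 in the neuron lineage. The count above 0 was 8 of 9 in astrocytes, 7 of 9 in endothelial cells, 4 of 6 in mural cells and 8 of 8 in the choroid plexus. In the neuron lineage Pi4kb stood at 17.6 and 30.6 CPM, a log2 ratio of 0.79. It was the only gene of this list at least 1.5-fold apart there, beside 1.56% of all genes higher. In the choroid plexus Sacm1l stood at 33.0 and 53.9 CPM from 188 and 133 UMIs, a log2 ratio of 0.71, and was the only gene of the list at least 1.5-fold apart there, beside 1.94% of all genes higher.

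Of 15 other lipid transfer genes at contact sites, 10 were measured over all cells, 6 above 0 and 4 below, with a median of 0.01. None was 1.5-fold apart. The farthest were Pitpnm1 at -0.20 and Gramd1a at 0.11. In the neuron lineage Stard4, a soluble cholesterol carrier, stood at 13.1 and 22.7 CPM, a log2 ratio of 0.79. It was the only gene of this list at least 1.5-fold apart there, beside 1.56% of all genes higher. Both Pi4kb and Stard4 rested on fewer than 100 UMIs in each library. Both reached the filter of 20 CPM only in the mutant library, so a gene this low was measured only because it was higher there.

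**Figure D5:**
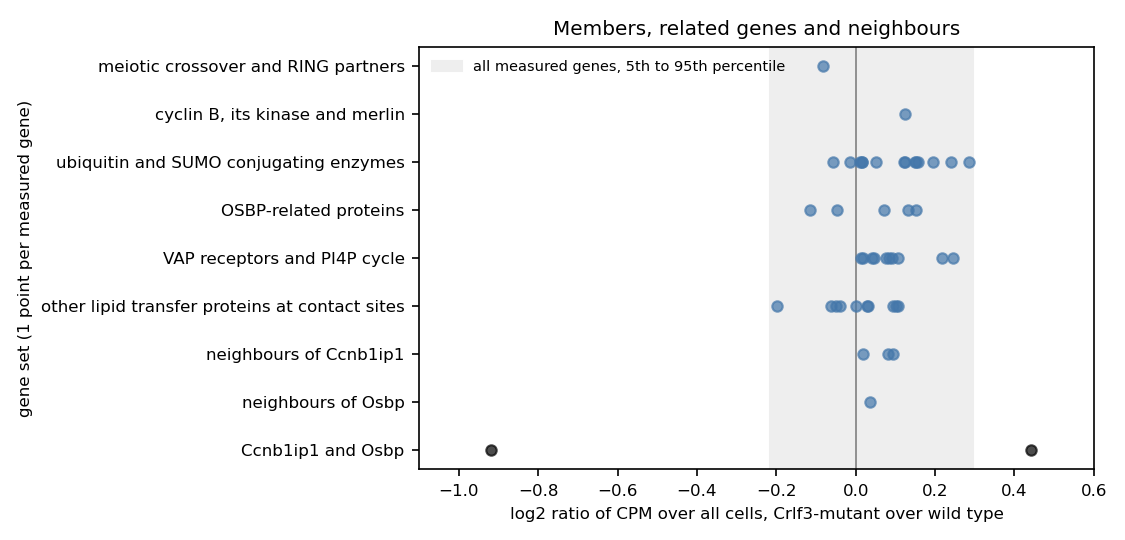
Log2 ratio of CPM over all cells, Crlf3-mutant over wild type, for each measured gene of the 6 related lists, the measured neighbours and the members, with the 5th to 95th percentile of all measured genes as a grey band. Ccnb1ip1 (-0.92) and Osbp (0.44) lie outside the band, and the related genes and neighbours lie between -0.20 and 0.29.

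By the root mean square difference of log2 ratios over the 6 classes, the gene most like Ccnb1ip1 among 2990 was Cd83, an activation marker of immune cells, at 0.78, followed by Id2 at 1.24, Ttr at 1.34, Ccl4 at 1.37 and Apoe at 1.37. A small distance does not mean a shared direction. Apoe was above 0 in microglia (0.26), astrocytes (0.04) and the choroid plexus (0.26), and Id2 was at -0.01 in astrocytes and 0.11 in endothelial cells. Apoe was at -2.25 and Id2 at -2.91 in mural cells, where the Ccnb1ip1 ratio came from 17 and 4 UMIs and did not pass the filter. Of the 3130 genes measured in all 6 classes, which leave out Ccnb1ip1, only Ttr and Cd83 (0.0639%) were at least 1.5-fold lower in at least 4. Ttr is the main product of the choroid plexus, of which the libraries held 451 and 160 cells. The Ttr log2 ratio was -0.11 in the choroid plexus and from -3.40 to -2.21 in the other classes. The cause of the Ttr pattern was not tested. Cd83 had a log2 ratio of -0.33 in microglia. For scale, the Ccnb1ip1 ratio itself was -0.85 in microglia. The genes most like Osbp were Itprid2 at 0.31, Mapkapk2 at 0.36, Ulk1 at 0.37, Ppp1r10 at 0.38 and Egln1 at 0.39. None of the 3130 genes (0%) was at least 1.5-fold higher in 4 or more classes. By level over 9 classes of the wild-type library, the genes most like Ccnb1ip1 were Pafah1b1 (Pearson r = 0.97), Asb3 (0.97) and Khdc4 (0.97), and those most like Osbp were Ncaph (0.92), Dus1l (0.87) and Mis12 (0.83). These are the highest of 10765 genes over 9 classes that share a library, and are given as a description.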

How the data were processed

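The deposited counts are UMIs per gene and cell barcode, made by the authors with Cell Ranger 6.1.1 from 10x 5' libraries on the mm10 reference, per the labels' protocols. The submitters' processing notes also name Partek. Both genes and the related lists were chosen with earlier results of these data known, and the rule for naming clusters was set after the files were read. A cell was kept if it had 500 genes or more, 1000 UMIs or more and no more than 10% of its UMIs from mitochondrial genes. Scrublet in scanpy 1.11.5 marked 148 wild-type (2.04%) and 77 mutant (1.44%) cells as doublets, which were removed. Cells of both libraries were clustered together (2000 variable genes, 30 components, Leiden resolution 1) without Ccnb1ip1, Osbp, Crlf3, Xist, Tsix and Y-linked genes, and clusters were named from 18 marker sets. The other clusters, led by Nrgn and by Rgs5, stayed unnamed. UMIs were summed per class and library, and a count of 0 was set to 3 in ratios. A gene with at most 3 UMIs in both libraries was given no ratio. With 1 library per genotype there is no test between genotypes. Named genes are the 2 members, the members of each list at least 1.5-fold apart or else the 2 farthest over all cells, the 4 nearest genes on each side where measured, and the 5 and 3 most alike by ratio and by level. List members named for the neuron lineage or the choroid plexus, for a level or for a count of 0, and the genes with a higher Fano factor, were chosen after their values were seen. Of 77 list genes, Cert1 was not matched. Some genes of the lists are not reported here.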

Additional observations from a re-analysis of the deposited data

Results flagged for a closer look

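Ccnb1ip1 in ependymal cells had a log2 ratio of 1.78 (0.66 to 2.93), mutant over wild type, while the 6 larger classes were below 0. It was singled out because the classes differ in direction. That direction did not hold without cells of 5 or more Ccnb1ip1 UMIs. The ependymal level was then 16.8 CPM in wild-type cells and 7.88 CPM (0.954 to 28.4) in mutant cells, from 14 and 2 UMIs. The difference between ependymal cells and the other classes was not tested. It rests on 26 mutant cells, of which 4 held the 16 UMIs of the gene, and with 1 library per genotype on 1 pool of mice.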

How the results depend on the processing

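No paired analysis was possible because each genotype has 1 library, and there was no replicate to leave out. In the classes compared, the Ccnb1ip1 ratio stayed below 0 and the Osbp ratio above 0 under each alternative that gave a value. No value was given for Ccnb1ip1 in mural cells with Y-linked transcripts, in the choroid plexus after thinning and in its Xist cells, or for Osbp in choroid plexus Xist cells, where both libraries held at most 3 UMIs.

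These log2 ratios moved by more than their counting interval. For Ccnb1ip1, log2(CPM + 10) gave -0.68 over all cells, -0.65 in microglia and -1.91 in the neuron lineage. Thinning to 2000 UMIs gave -0.76 in astrocytes and -1.91 in the neuron lineage. Cells with Y-linked transcripts and no Xist gave -0.71 over all cells and -1.84 in the neuron lineage, and Xist cells gave -0.76 in astrocytes. At most 1 UMI per cell gave -0.69 over all cells, -0.69 in microglia, -0.90 in astrocytes and -0.96 in the neuron lineage. Without cells of at least 5 UMIs it was -0.76 over all cells and -1.11 in the neuron lineage. For Osbp, Xist cells gave 0.33 over all cells and 0.45 in endothelial cells, thinning gave 0.45 in endothelial cells, and at most 1 UMI per cell gave 0.34 over all cells. Adding 10 CPM to both levels makes any log2 ratio smaller in size. The settings with at most 1 UMI per cell or without cells of at least 5 UMIs limit what each cell can add. The cause of the other moves was not tested.

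The number of genes at least 1.5-fold apart depended on the filter. With at least 50 CPM and 30 UMIs, in place of 20 and 20, fewer genes were tested, and the counts lower and higher were 34 and 15 over all cells (76 and 57 in the main setting), 15 and 3 in astrocytes (52 and 32), 15 and 1 in endothelial cells (57 and 22), 126 and 176 in mural cells (274 and 497), 8 and 13 in the choroid plexus (46 and 103) and 18 and 21 in the neuron lineage (136 and 129), and 3 were lower in microglia (6). With no filter beyond 1 UMI, leaving out genes with at most 3 UMIs in both libraries, they were 1674 and 1758 over all cells, 1186 and 826 in microglia, 1154 and 943 in astrocytes, 1076 and 739 in endothelial cells, 1368 and 1617 in mural cells, 1223 and 1242 in the choroid plexus and 1207 and 1114 in the neuron lineage. With median ratio normalization 75 genes were lower in the choroid plexus. The Ccnb1ip1 values in mural cells and the choroid plexus rest on fewer than 20 UMIs per library. The Osbp ratio in mural cells was 0.32 at Leiden resolution 0.5 against 1.04.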
